A study of Mus musculus with 4 samples.

Results

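The chemokines, the interleukins and the receptors for both were examined as a group of genes in mouse embryonic fibroblasts (MEFs) with and without Phf2, a member of the family of lysine demethylases that carry a PHD finger. Members were all rows of the deposited count table whose symbol begins with Ccl, Cxcl, Ccr, Cxcr, Ackr or Il followed by a digit, which gave 141 of 24391 gene symbols. By name, 37 are chemokine ligands, 21 chemokine receptors, 39 interleukin ligands, 42 interleukin receptors or binding proteins, and 2 belong to none of these (*Il4i1*, an amino acid oxidase induced by interleukin-4, and the antisense RNA *Il1bos*). A mean of at least 20 counts over the libraries was reached by 55 members, which are the ones named below unless stated otherwise. These were 15 chemokine ligands, 6 chemokine receptors, 9 interleukin ligands and 25 interleukin receptors or binding proteins.

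The study sequenced messenger RNA from quiescent primary MEFs, derived from E13.5 embryos, in 2 WT and 2 *Phf2* KO libraries, which the labels number as replicates 1 and 2. All 4 are labelled *Phf2* flox/flox, ERCre/+, so both groups carried floxed *Phf2* and a tamoxifen-dependent CreERT2 recombinase driven from *Rosa26*, and tamoxifen is named for the *Phf2* KO libraries only. Deletion, as the protocol gives it, used 0.5 µM 4-hydroxytamoxifen (4-OHT) for 7 days in Opti-MEM with charcoal-treated FBS at 2%. The *Phf2* KO libraries differ from WT in Phf2, in Cre activity and in exposure to 4-OHT at once, and these cannot be told apart.

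The libraries held between 21094743 and 26094268 counts, so that 3 counts correspond to between 0.116 and 0.145 counts per 1000000 (CPM). *Phf2* itself had 3244 and 3680 counts in WT replicates 1 and 2 against 1454 and 2158 in *Phf2* KO, lower in both *Phf2* KO libraries. Replicate 1 was female and replicate 2 male in both groups by *Xist* and *Ddx3y*. Fibroblast markers summed to between 69520 and 82050 CPM in the 4 libraries. Macrophage markers were counted for 17 genes, and *C1qa*, *C1qb* and *C1qc*, though planned, were left out. Of the 17, 16 had a mean of at least 20 counts. All 16 were higher in replicate 1 than in replicate 2 by more than 1 log2 unit in both genotypes. The sums over the 17 were 4017 and 862.2 CPM in WT and 4392 and 1346 CPM in *Phf2* KO, with *Cd163* at 2 counts or fewer in every library. Lymphocyte markers summed to at most 2.613 CPM. The 7 granulocyte and mast cell markers counted summed to at most 0.3326 CPM. *S100a8*, *S100a9* and *Ly6g* were not among them, so granulocytes were not checked by these genes. Endothelial markers summed to 48.81 and 17.68 CPM in WT and 43.08 and 17.67 CPM in *Phf2* KO, and epithelial markers to less than 1 CPM. Most of the endothelial sums came from *Kdr* and *Vwf*, at 18.29 and 26.83 CPM in WT replicate 1. *Pecam1*, *Cdh5* and *Emcn* were counted at most 6 times per library and *Tie1* was listed at 0, so these sums do not show endothelial cells. The replicate number, sex and the macrophage markers cannot be told apart with these libraries.

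Chemokines are small secreted proteins that guide migrating cells along gradients, and they act through receptors coupled to G proteins, while the atypical receptors of the Ackr group bind chemokines and remove them. Interleukins act through several kinds of receptor. Those of the interleukin-6 family share the signal transducer gp130 and the JAK-STAT pathway, those of the interleukin-1 family use the adaptor Myd88 and NF-κB, and those of the interleukin-17 family use the adaptor Act1. Fibroblasts are known as sources of Cxcl12 and of several of these ligands, and as cells that respond to interleukins 1, 4, 6 and 17. Macrophages are known as sources of many CC chemokines.

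The genes *Il6st*, *Cxcl12* and *Il4ra* had the highest mean levels per length among the members with a position in the annotation. In CPM per kilobase of exon, averaged over the 4 libraries, *Il6st*, which encodes gp130, was at 91.6 and *Cxcl12* at 72.6. *Il4ra*, the ligand-binding chain shared by the receptors for interleukins 4 and 13, followed at 29.3. Next came *Ccl3* at 27.6, *Il11ra1* at 24.7, *Il3ra* at 17.0, *Il10rb* at 15.3, *Ccl4* at 14.3 and *Il17ra* at 14.1. The libraries of *Il6st*, from 81.4 to 106.0 CPM per kilobase, overlapped those of *Cxcl12*, from 45.4 to 102.0, so the order of these genes is not fixed by the data. *Il4ra* ranged from 26.5 to 33.6 and *Ccl3* from 8.6 to 48.6, and these overlapped too. *Il11ra1* has a near-identical copy, *Il11ra2*, which was listed at 0, and the exons of *Il11ra1* overlap those of *Ccl27a* on the other strand. Where exons of *Ifnar2* overlap those of *Il10rb* on the same strand, reads of these genes cannot be told apart.

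**Figure D1:**
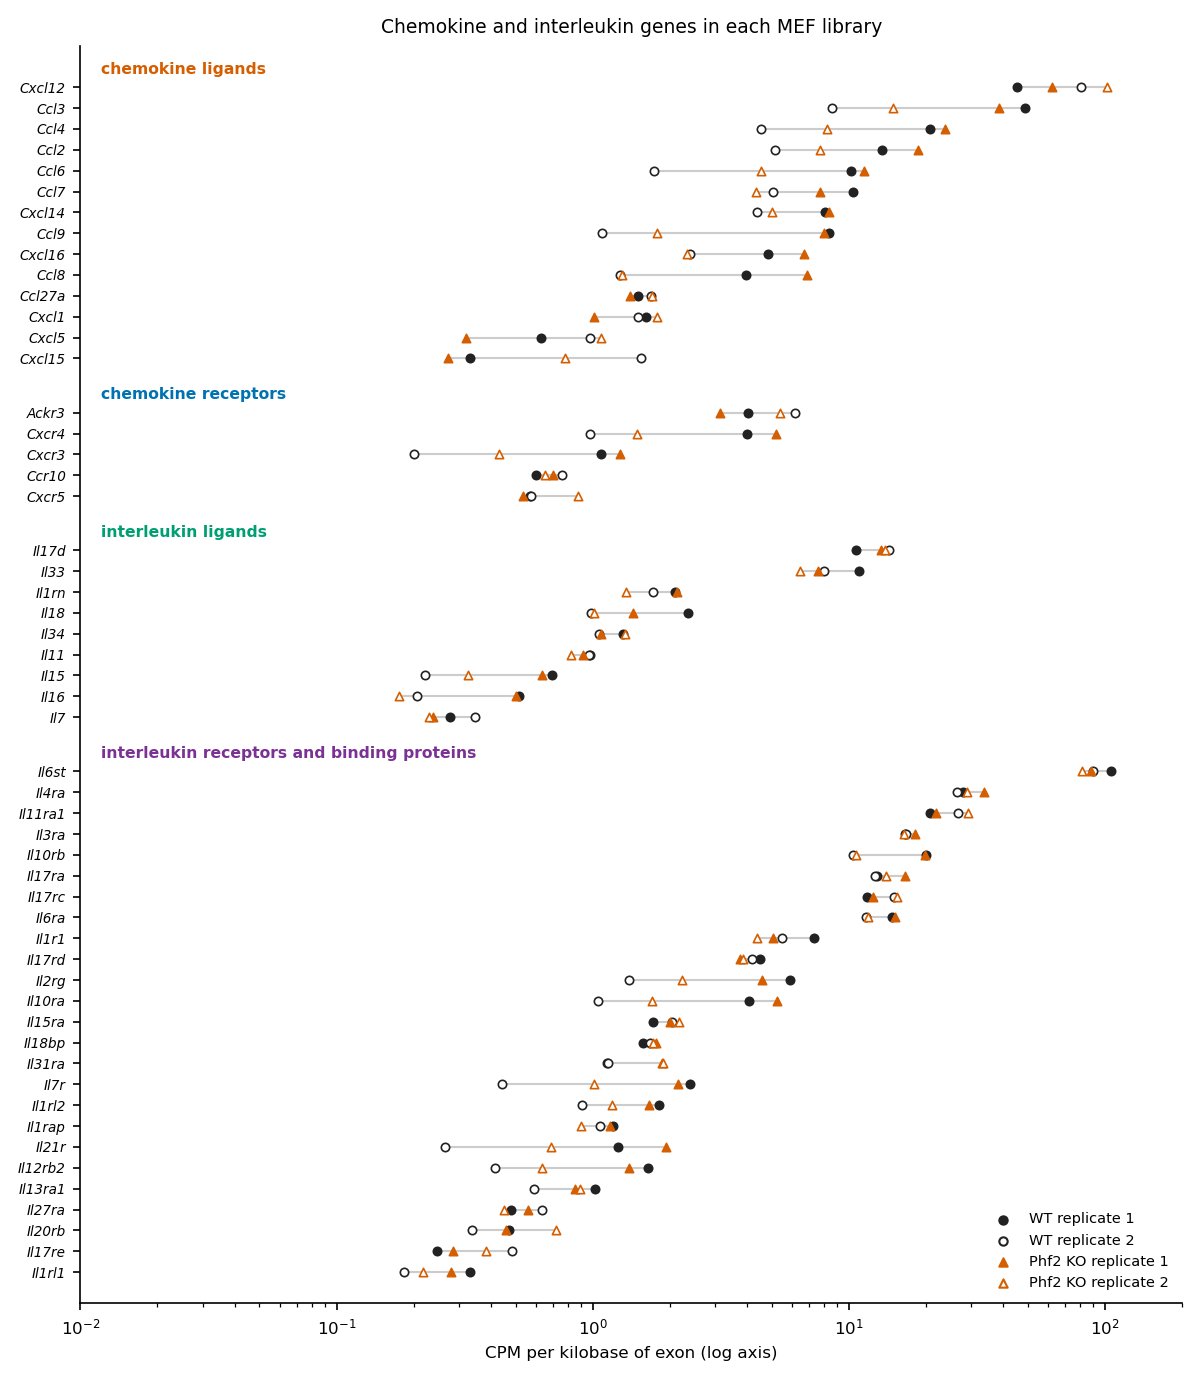
CPM per kilobase of exon (log axis) of the 53 members with a mean of at least 20 counts and a position in the annotation, by role class and ordered by mean level; circles are WT, triangles *Phf2* KO, filled symbols replicate 1 and open symbols replicate 2. *Il6st* and *Cxcl12* lead their classes at means of 91.6 and 72.6, and for *Ccl3*, *Ccl9* or *Cxcr4* the filled symbols lie together to the right of the open ones.

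No member was called between genotypes in the fit with genotype as its only term. At an adjusted p-value under 0.1 (edgeR, quasi-likelihood, Benjamini-Hochberg over 13668 genes), 0 of 59 members tested were higher in *Phf2* KO and 0 were lower, against 0.0% and 0.00732% of all genes tested. The same fit did not call the deleted gene either: *Phf2* had a log2 fold change of -0.79 (standard error, SE, 0.14) with an adjusted p of 0.999 in edgeR, and an adjusted p of 0.0032 in DESeq2. A count of 0 here thus does not show that the members were alike in both genotypes. An alternative edgeR fit with a replicate block, given at the end, called *Phf2* (adjusted p = 7.67e-19). It called 8 members higher and 3 lower, 18.6% of 59 against 11% of all genes tested. Labels and methods state no pairing, so "called" and "not called" refer below to the fit with genotype alone. At an unadjusted p-value under 0.05, 1 member was higher and 0 were lower (1.54% and 2.67% of all genes). DESeq2 and limma-voom also called 0 members in either direction, with 1 higher and 0 lower at an unadjusted p-value under 0.05 in each. The 59 members tested were the 55 named ones and 4 with a lower mean (*Ccl5*, *Ccl12*, *Ccl20* and *Cxcl10*). Their median log2 fold change was 0.05, with 35 positive and 24 negative, against 0.01 over all genes tested. By class it was 0.10 for 19 chemokine ligands, 0.19 for 6 chemokine receptors, -0.13 for 9 interleukin ligands and 0.05 for 25 interleukin receptors or binding proteins. The median over the 59 moved to -0.25 without *Phf2* KO replicate 1, to -0.23 without WT replicate 2, to 0.27 without WT replicate 1 and to 0.12 without *Phf2* KO replicate 2.

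The libraries of one genotype differed more for these genes than for the genome at large. Over the members tested, the log2 ratio of replicate 1 to replicate 2, averaged over the genotypes, had a median size of 0.70. The fitted log2 fold change between genotypes had a median size of 0.16. Over all genes tested these medians were 0.16 and 0.12. The median SE of the log2 fold change was 0.39 for the members and 0.16 for all genes tested. It was largest for the chemokine ligands, at 0.64, and smallest for the interleukin receptors and binding proteins, at 0.22. In the fit without a replicate block, a genotype difference in a chemokine ligand was thus measured less precisely than one in an interleukin receptor.

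*Il31ra* was the member with the smallest p-value. It encodes a gp130-like receptor that binds interleukin-31 together with the oncostatin M receptor. Its counts were 101 and 109 in WT against 142 and 166 in *Phf2* KO replicates 1 and 2, or 4.188 and 4.199 against 6.85 and 6.902 normalized CPM. Both *Phf2* KO libraries were above both WT libraries, and the replicates of a genotype differed by less than their counting error. The exact 95% Poisson intervals, which cover counting error only, ran from 3.41 to 5.09 and from 3.45 to 5.06 CPM in WT and from 5.77 to 8.07 and from 5.89 to 8.04 CPM in *Phf2* KO. In the edgeR fit its log2 fold change was 0.71 with a standard error of 0.16 (unadjusted p = 0.0091; edgeR adjusted p = 0.999 across all genes tested), and it stayed between 0.70 and 0.72 with each library left out in turn. Its ratios within replicate numbers were 0.71 and 0.71. The known co-receptor gene *Osmr* had 3976 and 3714 counts in WT against 3286 and 3942 in *Phf2* KO, a log2 fold change of 0.07 (SE 0.10). The ligand gene *Il31* was listed at 0 in all 4 libraries. Both were named after their values were seen.

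*Il31ra* occupies bases 113313018 to 113370870 of chromosome 13 (mm9, reverse strand), tail to tail with *Il6st* (113265216 to 113297068, forward strand), with 15.9 kb between them. The counts of *Il6st* were 13353 and 12174 in WT against 9558 and 10199 in *Phf2* KO, or 511.3 ± 60.0 and 442.6 ± 26.2 normalized CPM (SD, n = 2). Its *Phf2* KO libraries were thus below its WT libraries, the opposite order to *Il31ra*, by a log2 fold change of -0.21 (SE 0.12) that was not called. Without WT replicate 1 this was -0.07. The bases before the start of *Il31ra* are shown because this was the member with the smallest p-value. They are the 250 bases upstream in RefSeq (GRCm38.p6), found without mismatch at chr13:113370871-113371120 of mm9 and written 5′ to 3′ on the gene's strand. Capitals mark the match to TTCNNNGAA, the letters searched for STAT factors, on either strand, which lies at positions -191 to -183 from the start.
Il31ra: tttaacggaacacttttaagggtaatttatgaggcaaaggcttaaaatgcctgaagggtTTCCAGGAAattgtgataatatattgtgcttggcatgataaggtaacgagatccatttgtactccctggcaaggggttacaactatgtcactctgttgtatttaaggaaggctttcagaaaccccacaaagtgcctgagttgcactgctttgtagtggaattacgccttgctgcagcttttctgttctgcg
The motif stood in 7.02% of the 32851 RefSeq windows of this kind (250 bases before to 50 after a start), so a match is a description of the sequence and not a site.

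Among chemokine ligands, *Cxcl12*, which retains stem cells and leukocytes in tissues, had the highest mean level per length, although *Ccl3* exceeded it in WT replicate 1 (48.6 against 45.4 CPM per kilobase). It had 8947 and 17143 counts in WT replicates 1 and 2 against 10492 and 20110 in *Phf2* KO, or 515.7 ± 205.0 and 671.1 ± 233.0 normalized CPM (SD, n = 2). Within each genotype replicate 2 was the higher, and within each replicate number the *Phf2* KO library was the higher, by log2 ratios of 0.45 and 0.34. The genotypes overlapped, with a log2 fold change of 0.38 (SE 0.37) that was not called and that was -0.02 without *Phf2* KO replicate 2. The receptors known for Cxcl12 went in different directions. *Cxcr4*, its signalling receptor, had 174 and 46 counts in WT against 195 and 65 in *Phf2* KO, higher in replicate 1. *Ackr3*, the atypical receptor that takes up Cxcl12, had 325 and 536 counts in WT against 217 and 433 in *Phf2* KO, higher in replicate 2 like *Cxcl12*. Within replicate numbers, the ratios were 0.38 and 0.60 for *Cxcr4* and -0.36 and -0.20 for *Ackr3*. The fitted log2 fold changes were 0.43 (SE 0.88) and -0.26 (SE 0.35), neither of them called.

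The *Cxcl12* gene occupies bases 117118553 to 117131385 of chromosome 6 (mm9, forward strand). Its 250 upstream bases in RefSeq (GRCm38.p6) matched chr6:117118303-117118552 of mm9 and are shown because it was the ligand of the highest mean level. Capitals mark the match, on the reverse strand, to GGGNNNNNCC, a loose form of the letters bound by NF-κB, at positions -36 to -27.
Cxcl12: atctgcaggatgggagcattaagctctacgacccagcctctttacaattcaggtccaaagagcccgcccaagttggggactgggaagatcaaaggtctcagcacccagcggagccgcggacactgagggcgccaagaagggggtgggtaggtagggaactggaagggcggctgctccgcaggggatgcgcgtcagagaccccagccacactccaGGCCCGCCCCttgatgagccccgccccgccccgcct
These letters were found in 45.8% of all windows and in 42.6% of 54 windows of 41 members with a mean of at least 20 counts, on either strand.

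Several CC chemokines differed widely between replicates. *Ccl3* and *Ccl4*, which attract monocytes and T cells, were counted 898 and 171 (*Ccl3*) and 331 and 78 (*Ccl4*) times in WT. In *Phf2* KO the counts were 611 and 274 for *Ccl3* and 325 and 130 for *Ccl4*. Replicate 1 was the higher in each case, and the genotypes overlapped. The log2 fold changes were -0.10 (SE 0.90) and 0.33 (SE 0.86). *Ccl2*, the main attractant of inflammatory monocytes, had 371 and 152 counts in WT against 440 and 212 in *Phf2* KO. Its ratios within replicate numbers were 0.46 and 0.59, and its fitted log2 fold change was 0.50 (SE 0.62), not called, with values from -0.27 to 1.37 as single libraries were left out.

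Beyond 1 log2 unit in both genotypes, 18 of the 59 members tested (30.5%) were higher in replicate 1, against 3.95% of all genes tested, and 2 (3.39%) were higher in replicate 2, against 0.746%. Of the 18, 10 were chemokine ligands (*Ccl2*, *Ccl3*, *Ccl4*, *Ccl5*, *Ccl6*, *Ccl8*, *Ccl9*, *Ccl12*, *Cxcl10* and *Cxcl16*) and 2 chemokine receptors (*Cxcr3* and *Cxcr4*). The others were the ligand *Il16* and 5 receptor genes, namely *Il2rg*, the common γ chain, *Il7r*, *Il10ra*, *Il12rb2* and *Il21r*. The 2 higher in replicate 2 were *Cxcl15* and *Ackr4*. All 16 macrophage markers of sufficient count moved the same way as the 18, with median log2 ratios of 2.26 in WT and 1.8 in *Phf2* KO, and their part in the result was not tested. In bulk libraries, fewer cells of a type and less RNA per cell cannot be told apart.

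**Figure D2:**
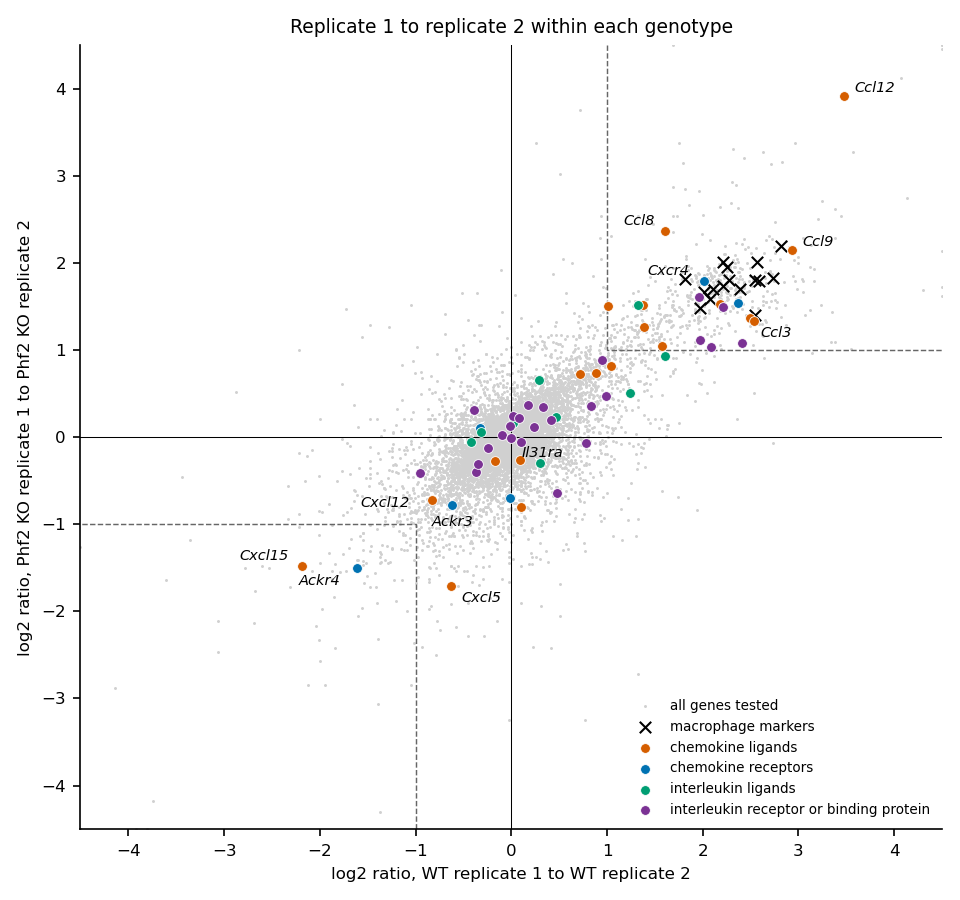
Log2 ratio of replicate 1 to replicate 2 in WT (x axis) and in *Phf2* KO (y axis), for all 13668 genes tested (grey, drawn at the edge where beyond it), the 59 members by class and the macrophage markers (crosses); dashed lines mark 1 log2 unit. The 18 members in the upper right corner lie in the range of the macrophage markers or around it, and *Cxcl15* and *Ackr4* lie in the lower left corner.

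Values per library are given for the members with the largest such ratios. *Ccl12*, a mouse relative of Ccl2, had 15 and 1 counts in WT against 19 and 1 in *Phf2* KO, so its log2 ratios of 3.48 and 3.92 rest on single counts in replicate 2. *Ccl9*, which attracts dendritic cells and osteoclast precursors, had 613 and 86 counts in WT against 504 and 131 in *Phf2* KO, with ratios of 2.93 and 2.15. *Ccl8* had 49 and 17 counts in WT against 73 and 16 in *Phf2* KO. These 3 genes were higher in both replicates 1 than in both replicates 2. The receptors *Cxcr3*, which binds the interferon-induced chemokines, at 45, 9, 46 and 18 counts, and *Il10ra*, the ligand-binding chain of the interleukin-10 receptor, at 344, 95, 379 and 144 counts, had the same order. Counts given as a run of 4 are, here and below, those of WT replicate 1, WT replicate 2, *Phf2* KO replicate 1 and *Phf2* KO replicate 2. *Cxcl15*, a chemokine known from lung epithelium, had the reverse order at 17 and 85 counts in WT against 12 and 40 in *Phf2* KO. *Ackr4*, which removes Ccl19, Ccl21 and Ccl25, did so too at 44, 146, 42 and 139 counts.

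Many of these genes are neighbours. On chromosome 11 of mm9, *Ccl2*, *Ccl7*, *Ccl11*, *Ccl12*, *Ccl8* and *Ccl1* lie between 81849073 and 82119192, and *Ccl5*, *Ccl9*, *Ccl6*, *Ccl3* and *Ccl4* between 83339280 and 83478185. All 5 genes of the latter cluster were tested and were higher in replicate 1 by more than 1 log2 unit in both genotypes. Their ratios ran from 1.38 for *Ccl5* to 2.93 for *Ccl9* in WT and from 1.33 for *Ccl6* to 2.15 for *Ccl9* in *Phf2* KO. In the former cluster *Ccl2*, *Ccl8* and *Ccl12* passed 1 log2 unit in both genotypes, and *Ccl7*, another monocyte attractant, stood at 1.04 and 0.82. *Ccl11* was counted at most 4 times per library and *Ccl1* was listed at 0. The ELR chemokines of neutrophils on chromosome 5 did not share this pattern. *Cxcl1* had 37 and 37 counts in WT against 20 and 41 in *Phf2* KO, and *Cxcl5* had 25 and 42 against 11 and 43, with *Cxcl15* as above.

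**Figure D3:**
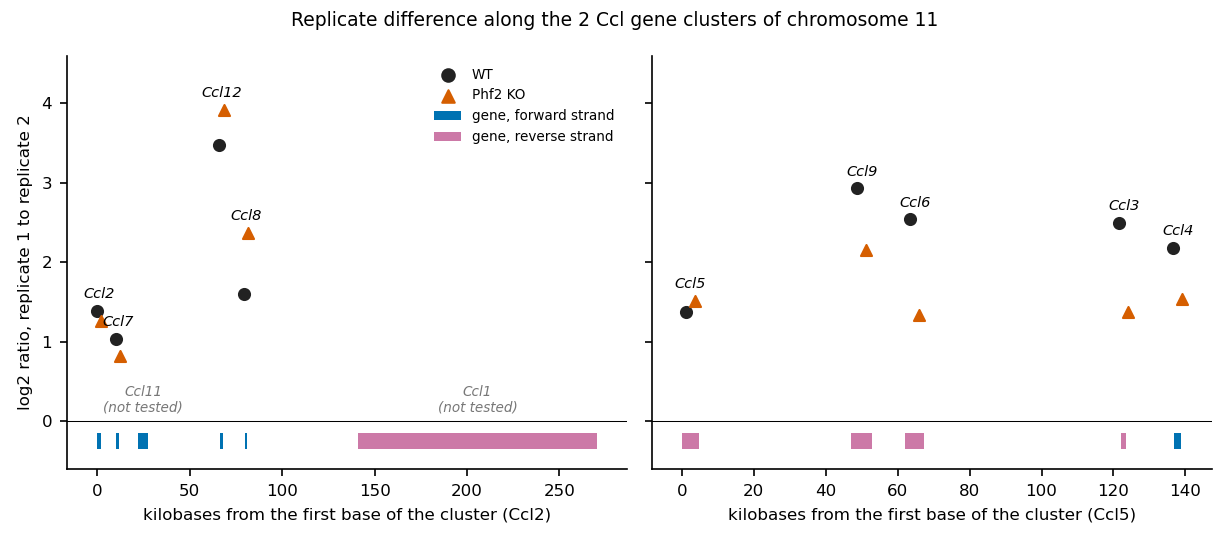
Log2 ratio of replicate 1 to replicate 2 in WT (circles) and *Phf2* KO (triangles) for the *Ccl* genes of chromosome 11, against the distance in kilobases from the first base of each cluster, with symbols shifted sideways for legibility and gene bodies drawn to scale below 0. All tested genes lie above 0 in both genotypes, from 0.82 for *Ccl7* in *Phf2* KO to 3.92 for *Ccl12* in *Phf2* KO.

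The sequence before *Ccl9* (chromosome 11 of mm9, 83386421 to 83392138, reverse strand) is shown as that of a member with a large ratio and a high count. It matched chr11:83392139-83392388 of mm9. Capitals mark GGGNNNNNCC at positions -35 to -26 from the start, TGANTCA, the letters of AP-1, at -53 to -47, and TATAAA at -224 to -219, at -94 to -89 and at -92 to -87, the last 2 overlapping on opposite strands.
Ccl9: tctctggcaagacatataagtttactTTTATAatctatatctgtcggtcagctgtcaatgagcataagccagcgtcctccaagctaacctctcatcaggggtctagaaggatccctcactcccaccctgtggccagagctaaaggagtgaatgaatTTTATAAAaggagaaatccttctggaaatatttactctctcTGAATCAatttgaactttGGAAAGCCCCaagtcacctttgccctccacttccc
Among 15 windows of 13 of the 18 members, TGANTCA stood in 3 windows and TATAAA in 26.7% of them, against 6.75% and 12.4% of all windows and 9.52% and 19.0% of 42 windows of the other members tested. GGGNNNNNCC stood in 40.0% of the 15, GAGGAAG, a form of the letters of the macrophage factor PU.1, in 13.3% against 10.6% of all windows, and TTCNNNGAA in 13.3%. These shares rest on 6 windows or fewer each.

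The remaining chemokine ligands follow. *Cxcl16*, a membrane-bound chemokine whose exons overlap *Zmynd15* on the other strand, had 353 and 189 counts in WT against 419 and 170 in *Phf2* KO. *Ccl6* was counted 440, 81, 428 and 197 times, higher in replicate 1 by log2 ratios of 2.54 and 1.33, and its ratios of *Phf2* KO to WT within replicate numbers of 0.18 and 1.39 were unlike each other. *Cxcl14*, a chemokine of skin and stroma, was at 356, 207, 317 and 220 counts, *Ccl7* at 201, 105, 128 and 84, *Ccl27a*, which has near copies in the genome, at 86, 104, 69 and 97, and *Ccl25*, a symbol with several annotated genes, at 74, 75, 53 and 74. The genotypes overlapped for each of the 19 chemokine ligands and 6 chemokine receptors tested. *Cxcr5* (36, 39, 29 and 55 counts) and *Ccr10* (25, 34, 25 and 27 counts), receptors of lymphocytes, completed the 6 receptors with a mean of at least 20.

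Members tested whose genotypes did not overlap were all interleukins or interleukin receptors and binding proteins, at shares below those of all genes tested. Both *Phf2* KO libraries were above both WT libraries for 4 of the 59 members (6.78%; 15.5% of all genes tested) and below them for 6 (10.2%; 18.0% of all genes). The 4 were *Il31ra*, *Il4ra*, *Il17ra* and *Il18bp*, and the 6 were *Il33*, *Il1r1*, *Il6st*, *Il17rd*, *Il7* and *Il11*. Those other than *Il31ra*, *Il33*, *Il4ra* and *Il6st* were chosen after their values were seen. None was called in the edgeR fit, where each had an adjusted p of 0.999.

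The alarmin *Il33* and the receptor of interleukin-1, *Il1r1*, were lower in *Phf2* KO in both replicate numbers. *Il33* encodes a nuclear cytokine released from damaged stromal cells, and had 764 and 594 counts in WT against 450 and 445 in *Phf2* KO, or 27.28 ± 6.22 and 20.11 ± 2.27 normalized CPM (SD, n = 2). *Il1r1* had 895 and 720 counts in WT against 528 and 532 in *Phf2* KO, or 32.42 ± 6.63 and 23.8 ± 2.37 normalized CPM (SD, n = 2). All *Phf2* KO libraries were below all WT libraries for both genes, and WT replicate 1 was the highest library. The log2 fold changes were -0.44 (SE 0.20, unadjusted p = 0.0823 from edgeR) and -0.45 (SE 0.18, unadjusted p = 0.0609 from edgeR), and without WT replicate 1 they were -0.17 and -0.21. Beyond 0.3 log2 units in both replicate numbers, these 2 were the only members lower in *Phf2* KO (3.39%, against 5.03% of all genes tested), with ratios of -0.54 and -0.31 for *Il33* and -0.54 and -0.33 for *Il1r1*. Of the 10 fibroblast markers, 5 were also lower in *Phf2* KO in both replicate numbers, among them *Lum* by ratios of -1.15 and -0.32 and *Col3a1* by -0.24 and -0.27, and the medians over the 10 were -0.11 and -0.097. Of 3 endothelial markers with a mean of at least 20 counts, 1 was lower in both, *Kdr*, by -0.55 and -0.67. Of 16 macrophage markers, 0 were lower in both and 8 were higher. These counts go by sign alone, and the share of all genes tested with like signs was not counted. The median ratios over all genes tested were 0.013 and 0.0017. These marker genes were named after their values were seen, and the part of any list in the values of *Il33* and *Il1r1* was not tested.

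The other genes of the interleukin-1 system were less uniform. *Il1rap*, the accessory chain used by the receptors for interleukins 1 and 33, had 330 and 315 counts in WT against 275 and 246 in *Phf2* KO. *Il1rl1*, the receptor of interleukin-33, stood at 55, 33, 40 and 36 counts and *Il1rl2*, that of interleukin-36, at 85, 46, 67 and 56. These 2 lie beside *Il1r1* on chromosome 1, in a cluster from 40141613 to 40608550 of mm9, and overlapped between genotypes. The antagonist *Il1rn* was at 162, 143, 142 and 104 counts, with 6.113 ± 0.855 in WT and 5.587 ± 1.79 normalized CPM in *Phf2* KO (SD, n = 2). Its log2 fold change was -0.13 (SE 0.29). *Il18*, a relative of interleukin-1, was at 40, 18, 21 and 17 counts, and *Il18bp*, which neutralises it, at 53, 61, 51 and 58. The *Phf2* KO libraries of *Il18bp* were above those of WT only after normalization, at 2.46 and 2.411 against 2.198 and 2.35 CPM. Interleukin-1 itself was scarcely seen, with 10, 4, 2 and 6 counts for *Il1a* and 0, 0, 2 and 0 for *Il1b*, named after their values were seen.

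The sequences before *Il33* and *Il1r1* are shown because only these members were lower in *Phf2* KO by more than 0.3 log2 units in each replicate number. For *Il33* (chromosome 19 of mm9, 29999604 to 30035194, forward strand), the RefSeq window of the downstream start matched chr19:30020030-30020279, and capitals mark TATAAA at positions -29 to -24. The window of its upstream start, not printed, held TATAAA at -203 to -198. For *Il1r1*, the window of the first start matched chr1:40281675-40281924 and held none of the 5 motifs searched, whereas the window of its second start, not printed, held GGGNNNNNCC at -232 to -223.
Il33: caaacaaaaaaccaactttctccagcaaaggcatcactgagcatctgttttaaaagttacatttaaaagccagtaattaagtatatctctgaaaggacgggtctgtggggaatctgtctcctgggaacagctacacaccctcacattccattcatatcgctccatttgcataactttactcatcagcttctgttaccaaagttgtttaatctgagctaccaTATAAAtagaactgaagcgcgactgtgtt
Il1r1: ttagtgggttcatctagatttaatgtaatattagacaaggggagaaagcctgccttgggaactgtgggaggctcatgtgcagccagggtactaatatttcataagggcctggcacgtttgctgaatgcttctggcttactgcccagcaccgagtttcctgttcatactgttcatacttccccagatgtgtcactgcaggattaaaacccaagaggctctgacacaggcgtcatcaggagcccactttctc
TATAAA stood in 12.4% of all windows and in 20.4% of those of members with a mean of at least 20 counts. No match says only that the letters are not in this window.

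Of the receptor genes for interleukins 4 and 17, *Il4ra* and *Il17ra* were above WT in both *Phf2* KO libraries, *Il17rd* was below, and none of them was called. *Il4ra* had 3465 and 3530 counts in WT against 3567 and 3563 in *Phf2* KO, or 139.8 ± 5.45 and 160.1 ± 16.9 normalized CPM (SD, n = 2). Its log2 fold change was 0.20 (SE 0.11), and 0.08 without *Phf2* KO replicate 1. *Il17ra*, the chain shared by receptors of the interleukin-17 family, had 1236 and 1310 counts in WT against 1367 and 1339 in *Phf2* KO, with a log2 fold change of 0.26 (SE 0.11). *Il17rd*, an antagonist of FGF signalling related to this family, was lower at 998 and 998 counts in WT against 713 and 856 in *Phf2* KO, with a log2 fold change of -0.19 (SE 0.10). The other chain of the receptor for interleukins 17A and 17F, *Il17rc*, was at 759, 1041, 688 and 989 counts, and *Il17re* at 18, 38, 18 and 28. Their ligand relative *Il17d*, the interleukin ligand of the highest level per length at 13.1 CPM per kilobase, had 318 and 460 counts in WT against 342 and 411 in *Phf2* KO. Its log2 fold change was 0.12 (SE 0.18).

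**Figure D4:**
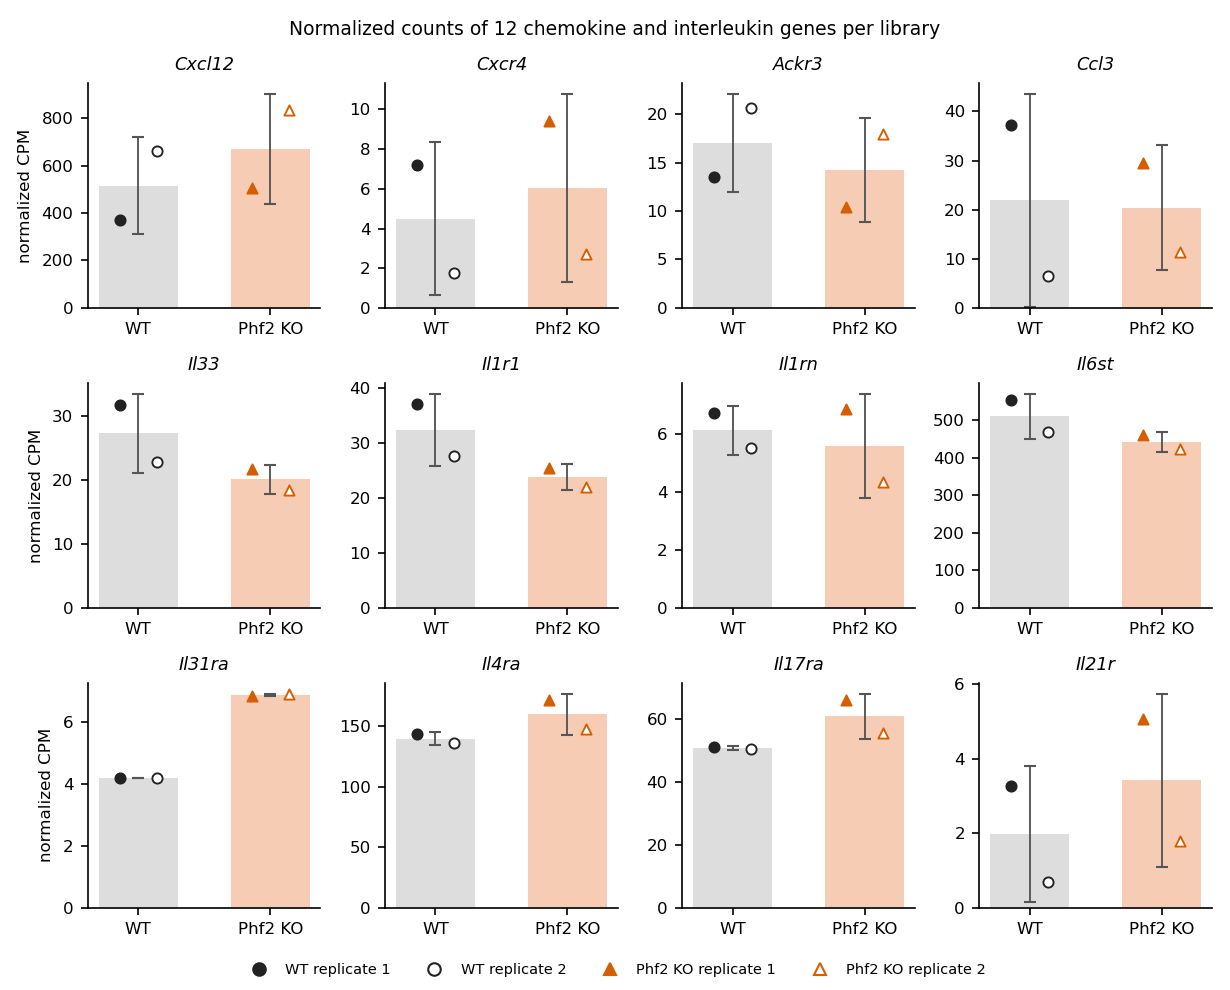
Normalized CPM of 12 members in WT and *Phf2* KO; bars show the mean of 2 libraries, error bars the SD, and points the libraries (filled for replicate 1, open for replicate 2), with a linear axis from 0 in each panel. *Il31ra* has 4.188 and 4.199 in WT against 6.85 and 6.902 in *Phf2* KO, whereas *Ccl3* and *Cxcr4* separate by replicate number.

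Within replicate numbers, 7 of the 59 members (11.9%) were higher in *Phf2* KO by more than 0.3 log2 units in both, against 4.1% of all genes tested. They were *Ccl2*, *Ccl20*, *Cxcl12*, *Cxcr4*, *Il10ra*, *Il21r* and *Il31ra*. For 4 of these, *Ccl2*, *Cxcr4*, *Il10ra* and *Il21r*, replicate 1 also exceeded replicate 2 by more than 1 log2 unit in both genotypes. *Il21r*, the receptor of interleukin-21, had 79 and 18 counts in WT against 105 and 43 in *Phf2* KO, with ratios of 0.63 and 1.34. *Il10ra* had ratios of 0.36 and 0.71, and *Ccl20*, the ligand of Ccr6, had 0.45 and 0.45 on 11 and 7 counts in WT against 13 and 9 in *Phf2* KO. The genotypes of these 3 overlapped, since the replicates differed more than the genotypes, and their log2 fold changes of 0.79 (SE 0.87), 0.44 (SE 0.82) and 0.45 (SE 0.54) were not called. Without *Phf2* KO replicate 1 the log2 fold changes of *Ccl2*, *Cxcr4*, *Il10ra* and *Il21r* turned to -0.27, -0.73, -0.58 and -0.15. The median ratio of *Phf2* KO to WT over the macrophage markers was 0.48 within replicate 2 and -0.04 within replicate 1, and their part in these ratios was not tested. *Il21r* lies 24 kb beyond *Il4ra* on chromosome 7 of mm9 (132746943 to 132777084), and unlike it differed between replicates.

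**Figure D5:**
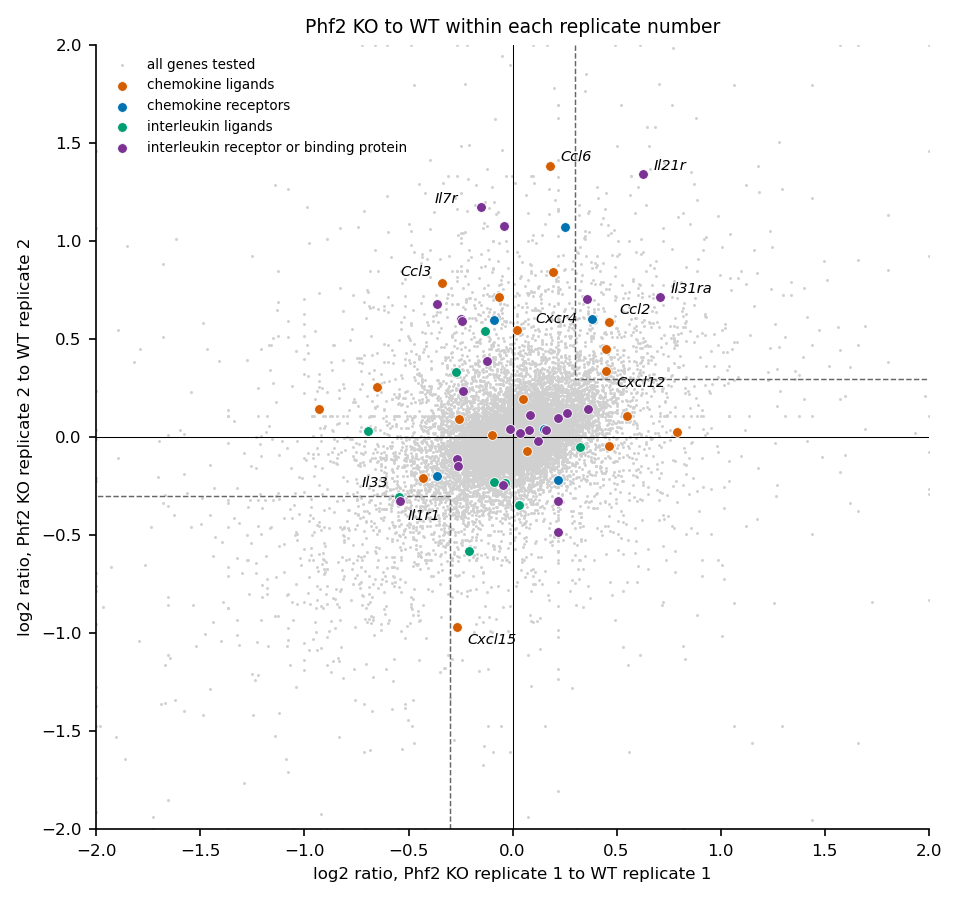
Log2 ratio of *Phf2* KO to WT in replicate 1 (x axis) and replicate 2 (y axis) for all 13668 genes tested (grey, drawn at the edge where beyond it) and the 59 members by class; dashed lines mark 0.3 log2 units. *Il31ra* lies at 0.71 on both axes, *Il33* and *Il1r1* just inside the lower left corner, and *Ccl3*, *Ccl6* and *Il7r* have unlike values on the axes.

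The remaining interleukin receptors overlapped between genotypes. *Il11ra1* had 2239 and 3114 counts in WT against 2038 and 3125 in *Phf2* KO, with a log2 fold change of 0.10 (SE 0.19). *Il6ra*, the interleukin-6 binding chain, was at 1193, 1019, 1051 and 957 counts, *Il3ra* at 559, 605, 523 and 553, *Il10rb* at 1836, 1028, 1566 and 981 and *Il15ra* at 171, 218, 171 and 216. *Il13ra1*, which pairs with *Il4ra*, was at 91, 57, 66 and 80, *Il20rb* at 48, 37, 40 and 73, and *Il27ra* at 31, 44, 31 and 29. The γ-chain gene *Il2rg* was at 340, 86, 227 and 128, *Il7r* at 185, 37, 143 and 78, and *Il12rb2* at 151, 41, 109 and 58. The last 3 were among the genes higher in replicate 1, and their log2 fold changes lay between -0.10 and 0.16. The ligand *Il11*, at 31, 33, 25 and 26 counts, had 0.918 CPM per kilobase against 24.7 for its receptor *Il11ra1*, and *Il6*, named after its values were seen, was counted 2, 4, 1 and 0 times. Exons of *Cxcl10*, *Il1rap*, *Il7*, *Il27ra* and *Il34* overlap other annotated genes on the opposite strand, and those of *Il2rg* overlap *Gm20489* on the same strand, so their counts are uncertain where these meet.

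Of the interleukin ligands, *Il16*, *Il34*, *Il15*, *Il7* and *Il11* were low. *Il16*, whose exons overlap *Stard5* on the other strand, was at 98, 42, 82 and 33 counts, and *Il34*, a ligand of the receptor for colony stimulating factor 1, at 62, 54, 44 and 63. *Il7*, the stromal factor for developing lymphocytes, was at 23 and 31 counts in WT against 17 and 19 in *Phf2* KO, a log2 fold change of -0.42 (SE 0.32). *Il11* had a log2 fold change of -0.16 (SE 0.28). Just above a mean of 20 counts were *Il15* (20.75), *Il7* (22.5) and *Il18* (24), and just below it *Cxcl10* (15.5), *Ccl5* (13.25) and *Ccl20* (10.0). *Il15* was counted 32, 11, 25 and 15 times, *Cxcl10* 23, 8, 20 and 11 times and *Ccl5* 20, 8, 18 and 7 times.

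The other 82 members were not tested for want of counts. Of these, 24 were listed at 0 in all libraries, 43 had a mean of 3 or fewer counts and 15 a higher one, up to 9.25 for *Ackr1* (16, 8, 4 and 9 counts). Differences in them were not detectable at this depth, where 3 counts are about 0.1 CPM. Receptors of the CC chemokines named above were in this group, with *Ccr1* at 3, 3, 2 and 7 counts and *Ccr2* at 0, 1, 0 and 4.

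Genes that act with the members were counted from a list of chemokine system, gp130, JAK-STAT, interleukin-1 and NF-κB genes. The table held 73 of them, of which 65 were tested, and the edgeR fit called 0 higher and 0 lower in *Phf2* KO, as did DESeq2 and limma-voom. At an unadjusted p-value under 0.05, 1 was higher and 1 lower. The higher one was *Jak3*, the kinase of the γ chain, at 512 and 594 counts in WT against 538 and 674 in *Phf2* KO, with a log2 fold change of 0.29 (SE 0.11, unadjusted p = 0.0475 from edgeR). The lower one was *Socs2*, a feedback inhibitor of cytokine and growth hormone receptors, at 137 and 147 counts in WT against 75 and 88 in *Phf2* KO, with a log2 fold change of -0.64 (SE 0.17, unadjusted p = 0.0167 from edgeR). Both had adjusted p = 0.999 from edgeR. The *Phf2* KO libraries were above both WT libraries for 15 of the 65 (23.1%; 15.5% of all genes tested) and below them for 5 (7.69%; 18.0%). Of the 15, 10 were among the 23 genes of the interleukin-1 and NF-κB list, and 2 of the 23 were below WT. The median log2 fold change over that list was 0.09, with 16 of the 23 positive. Over all genes tested it was 0.01, with 7003 of 13668 positive. Above were, for example, *Irak2* (378 and 472 counts in WT, 427 and 525 in *Phf2* KO) and *Relb* (510, 640, 556 and 704). Below were *Irak3* (491, 484, 343 and 397) and *Traf6* (547, 633, 465 and 520). These genes were named after their values were seen. *Jak1* and *Stat3*, the kinase and the factor downstream of gp130, overlapped between genotypes, with log2 fold changes of 0.14 and 0.00, and were also chosen after their values were seen.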

How the data were processed

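By the submitters' notes and the methods, Trim Galore was used for trimming, Bowtie2 for removing reads of ribosomal RNA, STAR for alignment to mm9 and featureCounts for counting. The authors deposited raw counts per gene symbol, as whole numbers. Versions of these tools, the annotation release and the strand setting of the counting are not given in the sources used here, so antisense and overlapping genes are uncertain. The authors' second table holds their DESeq2 comparison and was not used.

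The test between genotypes was run in R 4.3.3 with edgeR 4.0.16: filterByExpr (13668 genes), TMM, glmQLFit and glmQLFTest with genotype as the only term, two-sided, with Benjamini-Hochberg adjustment over all genes tested and a threshold of 0.1. DESeq2 1.42.0, limma 3.58.1 (voom), DESeq2's size factors, all genes with at least 1 count, a replicate block and each library left out were alternatives. CPM are normalized by TMM. Log2 ratios between libraries used 0.5 as pseudocount and were given no test. Python 3.11.15, pandas 2.3.3 and Matplotlib 3.10.9 were used for descriptions and figures. Positions and exon lengths came from GENCODE vM1 on NCBIM37 (mm9), which placed 138 members and not *Ackr4*, *Ccl25* and *Ccl28*. Upstream sequences came from RefSeq windows on GRCm38.p6, which held 41 of the 55 members with a mean of at least 20 counts.

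Full values were given for members with an unadjusted p-value under 0.05, the 3 of highest level per length in each class, the 6 with the largest replicate ratio and the 6 with the largest genotype ratio of like sign, and the 3 on each side of a mean of 20 counts. The other members of that mean are named with counts. Members, gene lists and rules were chosen with earlier results of these data known. The labels do not name the embryo or culture behind a library, so p-values measure only the spread between these libraries. Intervals and limits cover counting error only.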

Additional observations from a re-analysis of the deposited data

How the results depend on the processing

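With DESeq2, limma-voom, DESeq2's size factors, all genes with at least 1 count or any library left out, 0 members and 0 signalling partners were called in either direction. Under the first 4 of these, the log2 fold changes of all 20 members followed kept their sign. The labels and methods state no pairing, and with 2 numbers none can be shown. Sex nonetheless went with replicate number in both genotypes. The chi-square per degree of freedom between the counts of 2 libraries was 15.2 for replicates 1 and 11.8 for replicates 2 across genotypes. For the other pairs of libraries it ran from 28 to 44.3. With the replicate block in edgeR's fit, which leaves 1 residual degree of freedom, 8 members were called higher (*Ccl2*, *Ccl4*, *Ccl6*, *Cxcl12*, *Il10ra*, *Il17ra*, *Il21r* and *Il31ra*) and 3 lower (*Cxcl15*, *Il1r1* and *Il33*), or 18.6% of 59, against 789 higher and 711 lower genes, 11% of 13668. Of the partners, 6 were higher and 1 lower. Replicate differences in WT and *Phf2* KO correlated across 11556 genes, which are not replicates, with Pearson's r of 0.853. The common dispersion was 0.00363 with the block and 0.0451 without it.

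The median over the members was 0.12 with all genes of at least 1 count and ran from -0.25 to 0.27 with single libraries left out, where a lone library is assumed to vary like the other group. Reversals came only from leaving out libraries, with ranges of -2.83 to 3.43 for *Ccl12*, -0.27 to 1.37 for *Ccl2*, -1.0 to 1.67 for *Ccl8*, -1.4 to 2.17 for *Ccl9*, -0.025 to 0.84 for *Cxcl12*, -0.55 to 2.08 for *Cxcr3*, -0.73 to 1.78 for *Cxcr4*, -0.58 to 1.74 for *Il10ra* and -0.15 to 2.3 for *Il21r*. With library size alone or DESeq2's size factors, members higher in replicate 1 numbered 17 and 18, and in replicate 2 there were 2 under each. Depth limits the 82 members not tested.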
